A study of Mus musculus with 10 samples.

Results

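The genes described here are 10 neighbours of Htra2 on mouse chromosome 6: Dok1, Loxl3, Aup1, Dqx1, Pcgf1, Mogs, Wbp1, Ino80b, Rtkn and Dctn1. They were chosen as a fixed list of genes close to Htra2, and all 10 were found among the 19271 genes that result when the transcripts of the deposited table are summed by gene. The question is whether the edited locus, or the stretch of chromosome that travels with it, comes with altered levels of the neighbouring genes. Htra2 itself is given beside them.

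Liver RNA of 10 mice was sequenced after poly(A) selection on oligo(dT) beads. The mice were 3 homozygous S400D/S400D males, 1 homozygous S400D/S400D female, 3 heterozygous S400D/WT males and 3 WT/WT males, all 2 months old and of strain C57BL6/N. The S400D mutation lies in HtrA2/Omi, and the labels state neither how the allele was made, nor the litters, nor where the wild types came from. Replicates carry a number and no further history, so a p-value here speaks of the scatter among these samples alone.

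HtrA2/Omi, the product of Htra2, is a serine protease of the mitochondrial intermembrane space that takes part in protein quality control and, once released, in cell death. Aspartate at a serine position is often used to imitate a phosphorylated serine. An allele that is engineered and bred carries flanking DNA with it, so genes near the edited site share its haplotype, and a change in the sequence of one gene can also fall into an exon or regulatory element of the next.

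The genes are packed closely on both strands. In GRCm38.p6 coordinates of chromosome 6, Htra2 runs on the minus strand from 83051266 to 83054571. Loxl3 (83034205 to 83052566, plus strand) converges on Htra2 and overlaps it by 1301 bases. Aup1 (83054495 to 83057682, plus strand) starts within Htra2 and overlaps it by 77 bases. Dqx1 (83057747 to 83067313, plus strand) begins 64 bases after Aup1 ends. Dok1 (83030932 to 83033495, minus strand) lies 709 bases from the start of Loxl3, in divergent orientation. On the other side follow Pcgf1 (83077552 to 83080855, plus strand) at 23.0 kb from Htra2, Mogs (83115506 to 83118902, plus strand) at 60.9 kb and Wbp1 (83119044 to 83121461, minus strand) at 64.5 kb. Ino80b (83121765 to 83125119, minus strand) lies at 67.2 kb, Rtkn (83135505 to 83152579, plus strand) at 80.9 kb and Dctn1 (83165909 to 83200118, plus strand) at 111 kb. Genes outside the list lie between some of these, such as Ccdc142 and Mrpl53 between Pcgf1 and Mogs, and Wdr54 between Rtkn and Dctn1.

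**Figure D1:**
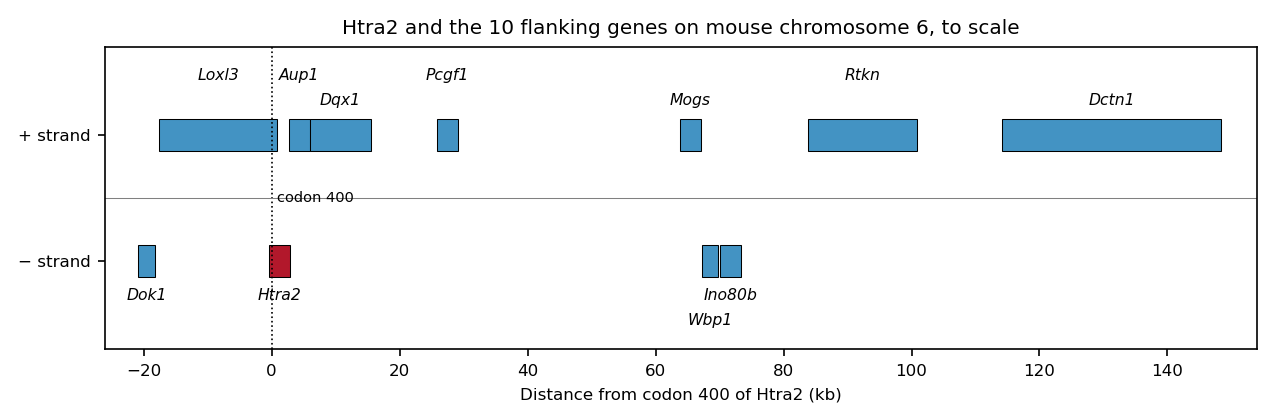
Map of Htra2 (red) and the 10 flanking genes (blue), drawn to scale by strand; the horizontal axis gives the distance from codon 400 of Htra2 in kb. The dotted line at codon 400 crosses the right end of Loxl3 on the opposite strand.

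Codon 400 of the 458 codons of Htra2 reads TCC, a serine codon, in exon 7 of 8 of the main transcript. It is shown with its surroundings because the edited position is also transcribed from the opposite strand. The stretch below is from the GENCODE M21 annotation and sequence of GRCm38, chr6:83051744-83051767, minus strand, with codon 400 in capitals.
Htra2 codon 400: gttatcctgggcTCCcccgcacac
Which bases make up the S400D codon is not stated in the labels. On the plus strand, codon 400 falls in the 3′ untranslated region of Loxl3, in exon 14 of 14 of its longer annotated transcript. Exons of Htra2 and Loxl3 share 535 bases, of 1725 exonic bases in Htra2 and 4098 in Loxl3, and exons of Htra2 and Aup1 share 51 bases. Whether the authors counted by strand is not stated in the labels, so reads from these shared bases cannot be told apart by gene.

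Each library held 16240441 to 17264289 expected counts. Aup1 was counted with 2084 to 2733 reads per library, whereas Dok1 and Loxl3 had between 11 and 41 reads, so their counting error is wide. Per unit of transcript length (TPM, length-scaled values as the authors deposited them), Aup1 stood highest in WT/WT livers at 137 ± 7.58 TPM, followed by Wbp1 at 33.0 ± 3.59 TPM, Mogs at 27.2 ± 0.187 TPM and Ino80b at 19.0 ± 1.05 TPM (SD, n = 3). Dctn1 (12.7 ± 1.64 TPM), Htra2 (12.7 ± 3.48 TPM), Rtkn (9.88 ± 0.913 TPM), Pcgf1 (8.99 ± 2.04 TPM) and Dqx1 (7.38 ± 0.826 TPM) followed, and neighbours within this run of genes did not differ beyond their spread. Dok1 (1.14 ± 0.455 TPM) and Loxl3 (0.573 ± 0.272 TPM) were lowest, and their ranges overlapped.

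No flanking gene passed the test in any comparison of genotypes. All 10 genes passed the filter on low counts, and the test was edgeR's quasi-likelihood test on the 9 males, with p adjusted by Benjamini-Hochberg over the 12427 genes tested and a threshold of 0.05. In S400D/S400D against WT/WT males 0 of the 10 genes passed, where 0% of all genes did. At an unadjusted p below 0.05 there were 2 of the 10 (Wbp1 and Dok1), where 14.9% of all genes lay below that limit. In S400D/WT against WT/WT males 0 of the 10 passed, 0 lay below an unadjusted 0.05, and the shares over all genes were 0% and 4.19%. Set against S400D/WT males, S400D/S400D males had 0 of the 10 past the threshold and 1 (Wbp1) with an unadjusted p below 0.05, against 0% and 17.2% of all genes. DESeq2 also called 0 of the 10 in each of these comparisons, where it called 308, 6 and 530 genes in the same order. It was given all 19271 genes, of which 16474 had reads in the males, and the number it tested is not given here. In limma on FPKM 0 of the 9 flanking genes that passed its filter were called, which left out Loxl3, and 0 of all 10576 genes tested. A p that misses the threshold does not show that levels were equal, so the 95% intervals of the fit are given with the values.

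**Figure D2:**
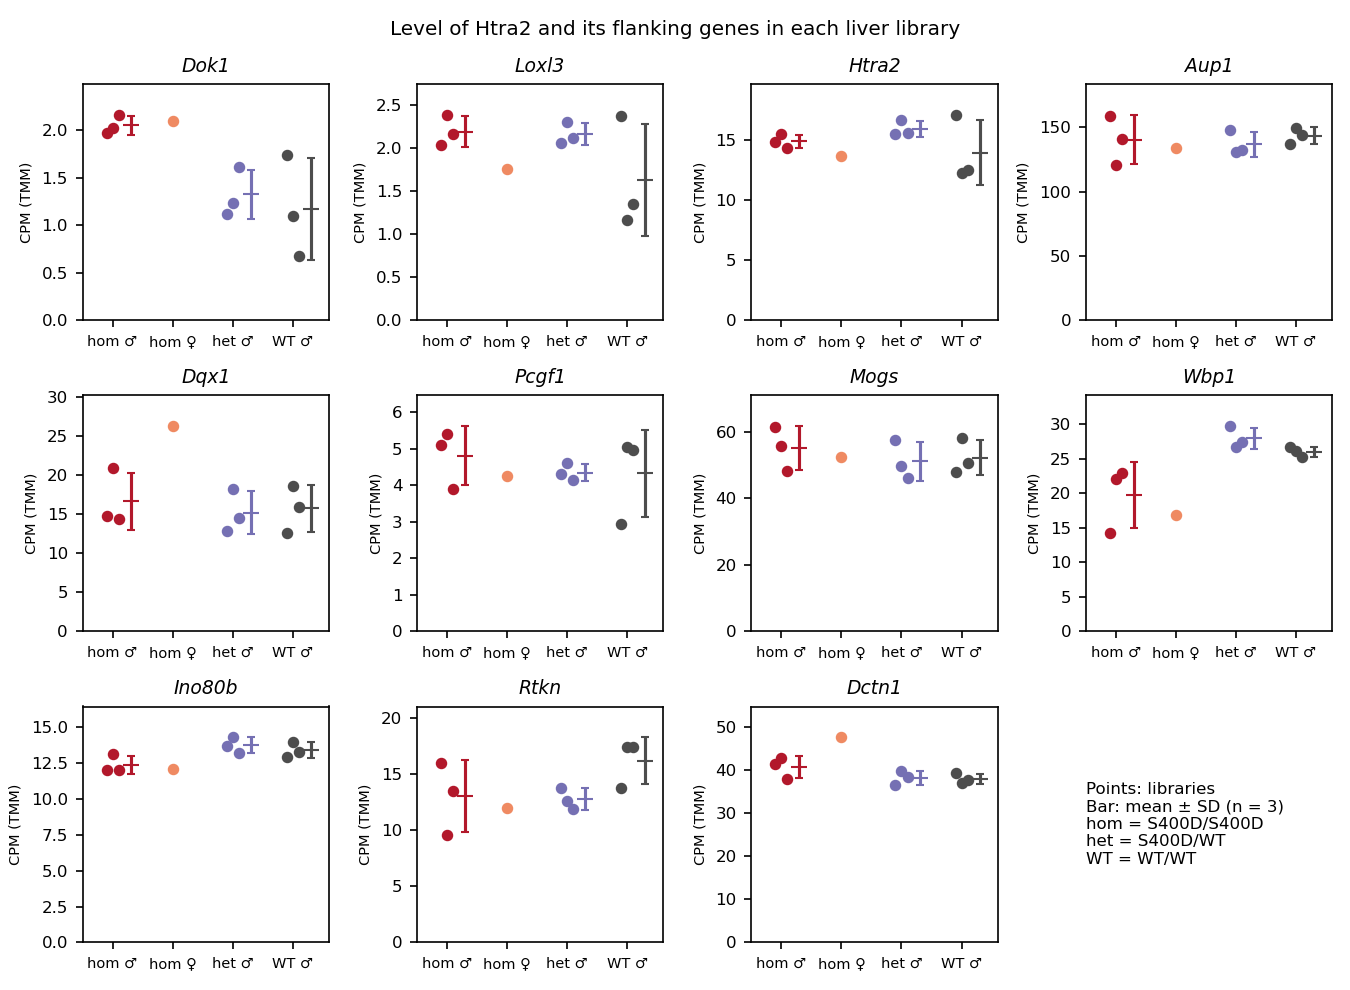
Level of Htra2 and its 10 flanking genes in each library, in CPM (library-size scale with TMM factors); points are libraries and bars the mean ± SD of 3 males. The 4 S400D/S400D libraries of Wbp1 lie between 14.3 and 22.9 CPM, below the other 6, and those of Dok1 lie between 1.97 and 2.16 CPM, above the other 6.

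Wbp1 encodes a small protein that binds WW domains, first known as a partner of the Yes-associated protein. It had 14.3, 22.0 and 22.9 CPM (the library-size scale of edgeR with TMM factors) in S400D/S400D males and 16.9 CPM in the S400D/S400D female, against 29.7, 26.7 and 27.4 CPM in S400D/WT males and 26.7, 26.1 and 25.2 CPM in WT/WT males. All 4 homozygous libraries lay below all 6 others, and homozygous male 1 was lowest. Over all genes, 3.03% of 12954 were likewise lower without overlap in the 4 homozygotes. The counts behind these levels were 246, 379 and 383 reads in the homozygous males and 461, 404 and 410 reads in the WT/WT males, with 95% exact Poisson intervals of 216 to 279 reads in homozygous male 1, 342 to 419 in homozygous male 2, 346 to 423 in homozygous male 3 and 366 to 445 in wild-type male 2. Of the homozygous males, male 1 alone was separated by its interval from wild-type male 2, the wild type with the fewest reads. The other homozygous males overlapped wild-type male 2, and the homozygous female (265 to 334 reads) lay below it. The means were 19.8 ± 4.76 CPM in S400D/S400D and 26.0 ± 0.762 CPM in WT/WT males (SD, n = 3 each).

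The log2 fold change of Wbp1 was -0.40 in S400D/S400D against WT/WT males (SE 0.17, 95% interval -0.77 to -0.02, edgeR adjusted p = 0.314), a fold of 0.759. Against S400D/WT males it was -0.49 (SE 0.17, interval -0.87 to -0.12, edgeR adjusted p = 0.196), which was the smallest adjusted p of any flanking gene in the genotype comparisons. Neither passed the threshold. S400D/WT and WT/WT males overlapped, with a log2 fold change of 0.10 (SE 0.17, interval -0.28 to 0.47, edgeR adjusted p = 0.978). The value rested in part on homozygous male 1, without which it was -0.20 against WT/WT and -0.30 against S400D/WT males. In TPM the homozygous males (20.3, 32.1 and 31.3) overlapped the WT/WT males (36.7, 29.6 and 32.6), so the separation from WT/WT holds on the TMM scale and not on the authors' TPM scale. The S400D/WT males, at 34.8, 34.8 and 38.3 TPM, stayed above the homozygous males and the female (24.9 TPM).

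The homozygous males also differed from the wild types in the ratio of a pair of clock genes, and the labels give no time of collection. The clock index, log2 of Arntl over Dbp, was 1.91, 1.02 and 4.91 in S400D/S400D males, -7.01 in the S400D/S400D female, -7.73, 2.39 and -5.35 in S400D/WT males and -5.61, -5.92 and -5.21 in WT/WT males. The female and heterozygous male 2 did not share the index of their genotype. The female had 16.9 CPM of Wbp1 at a low index, and heterozygous male 2 had 26.7 CPM at an index within the range of the homozygous males. With the index as a covariate the log2 fold change of Wbp1 in S400D/S400D against WT/WT males was -0.38 (edgeR adjusted p = 0.980). The index of every S400D/S400D male lay above that of every WT/WT male, so this fit separates index and genotype poorly. The part of clock phase in the level of Wbp1 was not tested. An alternative fit removed a smooth trend on transcript length from each library. How far the libraries differed in that trend is not given here. Wbp1 is short (effective length 1032 bases, against a median of 2625 bases over tested genes), and with that trend removed its fold change was -0.31 (edgeR adjusted p = 0.407).

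The reads of Wbp1 were divided by the authors' program among 3 transcripts. The main one took 70.1 ± 5.11% of the gene's reads in S400D/S400D males, 68.7 ± 2.53% in S400D/WT males and 71.2 ± 3.67% in WT/WT males (SD, n = 3 each). Its log2 fold change in homozygous against wild-type males was -0.40 (SE 0.20, edgeR adjusted p = 0.679 over 30251 transcripts). The other transcripts had fold changes of -0.14 (SE 0.35) and -0.58 (SE 0.40). No transcript stood out, and the shares overlapped between genotypes.

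The sequence before Wbp1 is shown because it is the flanking gene whose homozygous libraries lay lowest, and because the window is rich in one motif. The 250 bases upstream of its start are from the RefSeq promoter table of GRCm38.p6, chr6:83121462-83121711, minus strand; capitals mark the CCAAT box, searched on both strands as CCAAT and ATTGG.
Wbp1 upstream: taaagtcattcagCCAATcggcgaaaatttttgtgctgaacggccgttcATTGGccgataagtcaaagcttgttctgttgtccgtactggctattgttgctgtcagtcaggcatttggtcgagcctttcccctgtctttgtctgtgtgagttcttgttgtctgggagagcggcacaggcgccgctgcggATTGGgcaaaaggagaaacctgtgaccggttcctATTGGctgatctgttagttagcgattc
The window holds 4 copies. At least 1 copy was held by 33.8% of the 32851 windows of this length, and at least 4 copies by 276 (0.84%). The table has 8 windows for 5 of the flanking genes (Mogs, Wbp1, Ino80b, Rtkn and Dctn1), and the other 7 windows held 0 copies. The letters CACGTG, the E-box of clock factors, were in 0 of the 8 windows, against 6.02% of all windows. These matches describe letters, not binding.

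Dok1 encodes a docking protein that dampens signalling from tyrosine kinases, best known in blood cells. It had 1.97, 2.03 and 2.16 CPM in S400D/S400D males and 2.10 CPM in the S400D/S400D female, against 1.12, 1.24 and 1.62 CPM in S400D/WT males and 1.74, 1.10 and 0.676 CPM in WT/WT males. All 4 homozygous libraries lay above the 6 others, as did 1.80% of all genes. The counts were small: 34, 35 and 36 reads in the homozygous males and 30, 17 and 11 reads in the WT/WT males. Exact Poisson intervals were 23.5 to 47.5 reads in homozygous male 1 and 20.2 to 42.8 reads in wild-type male 1, so these libraries were not separated by their counts alone.

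The log2 fold change of Dok1 was 0.80 in S400D/S400D against WT/WT males (SE 0.34, 95% interval 0.03 to 1.57, edgeR adjusted p = 0.322) and 0.63 against S400D/WT males (SE 0.34, interval -0.13 to 1.39, edgeR adjusted p = 0.375). In S400D/WT against WT/WT males it was 0.17 (SE 0.35, interval -0.62 to 0.97). Leaving out wild-type male 1 gave 1.22 against the wild types, and leaving out wild-type male 3 gave 0.54. Per S400D allele the change was 0.41 (SE 0.17, edgeR adjusted p = 0.351). For the trend over alleles, 0% of all genes passed and 13.0% had an unadjusted p below 0.05; Dok1 was the single flanking gene below that limit.

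Markers of macrophages differed between the same libraries. The summed level of 10 Kupffer cell and macrophage markers was 433, 454 and 454 CPM in S400D/S400D males, 452 CPM in the S400D/S400D female, 202, 388 and 471 CPM in S400D/WT males and 497, 198 and 155 CPM in WT/WT males. All 10 had positive fold changes in homozygous against wild-type males (median log2 0.64), 0 of them passed, and none was at 0 in all libraries. Clec4f, 1 of these 10 markers, itself lies within 1 Mb of Htra2. It gave 96.8, 104 and 104 CPM of the sums in S400D/S400D males and 112, 50.4 and 40.0 CPM in WT/WT males. The 3 libraries with the lowest sums (wild-type males 2 and 3 and heterozygous male 1) were also the 3 lowest in Dok1. Wild-type male 1 and heterozygous male 3 had the highest sums, yet their Dok1 (1.74 and 1.62 CPM) lay below that of all 4 homozygotes. Markers of sinusoidal endothelium summed to 174 to 181 CPM in S400D/S400D males, 134 CPM in the female, 108 to 166 CPM in S400D/WT males and 73.7 to 184 CPM in WT/WT males, and those of stellate cells to 226 to 398 CPM, 277 CPM, 202 to 320.3 CPM and 99.4 to 257 CPM in the same groups. The part of these cells in the level of Dok1 was not tested. In such bulk tissue fewer cells of a type and less RNA per cell cannot be told apart.

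Loxl3, a lysyl oxidase that cross-links collagen and elastin, had 2.03, 2.38 and 2.16 CPM in S400D/S400D males, 1.76 CPM in the S400D/S400D female, 2.06, 2.30 and 2.12 CPM in S400D/WT males and 2.37, 1.16 and 1.35 CPM in WT/WT males. Wild-type males 2 and 3 were lowest and wild-type male 1 lay with the carriers, so the groups overlapped. The log2 fold changes against WT/WT were 0.41 in S400D/S400D males (SE 0.29, interval -0.24 to 1.07, edgeR adjusted p = 0.522) and 0.39 in S400D/WT males (SE 0.29, interval -0.27 to 1.05, edgeR adjusted p = 0.972). Without wild-type male 1 they were 0.80 and 0.78, and without wild-type male 2 they were 0.22 and 0.20; none of these passed. These intervals include a fold of 2.10 at the upper end and 0.845 at the lower end for the homozygotes, so a doubling could not be separated from no change. Exact Poisson intervals of the raw counts were 29.4 to 55.6 reads in wild-type male 1 and 10.7 to 28.4 reads in wild-type male 2. These are the highest and lowest wild types, and the raw counts are not scaled for library size. The intervals therefore cannot decide whether the wild types differed by more than counting error.

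Htra2 had 14.9, 15.5 and 14.4 CPM in S400D/S400D males, 13.7 CPM in the S400D/S400D female, 15.5, 16.7 and 15.6 CPM in S400D/WT males and 17.1, 12.3 and 12.5 CPM in WT/WT males. As for Loxl3, wild-type males 2 and 3 were lowest and wild-type male 1 was high. The log2 fold change in S400D/S400D against WT/WT males was 0.09 (interval -0.23 to 0.40), and it was -0.003 without wild-type male 2. A change of 1 codon leaves gene totals unable to check the genotype labels. Over the 10 libraries the log2 CPM of Loxl3 and Htra2 had a Pearson correlation of 0.92, the highest among the 55 pairs of these 11 genes. The genes share 535 exonic bases, and the points share libraries.

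**Figure D3:**
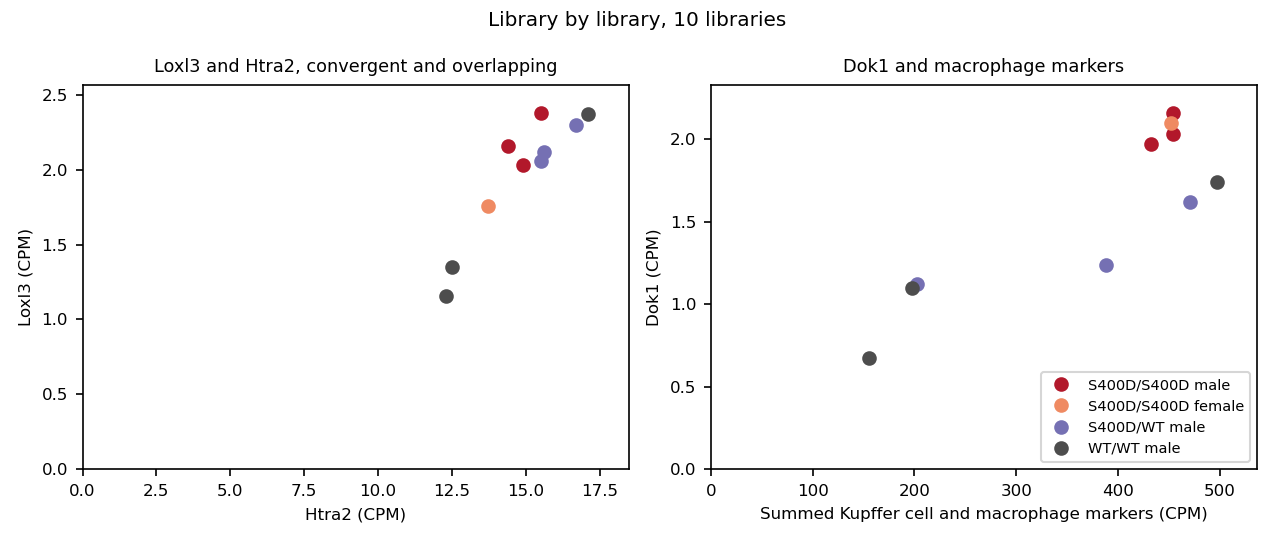
Left, Loxl3 against Htra2 in each of the 10 libraries, both in CPM; right, Dok1 in CPM against the summed CPM of 10 Kupffer cell and macrophage markers; colours give genotype and sex. Wild-type males 2 and 3 lie at the low end of both panels, and wild-type male 1 lies with the carriers in the left panel.

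Aup1 encodes a protein of the endoplasmic reticulum and of lipid droplets that takes part in the degradation of misfolded proteins. It starts inside Htra2 and was the most abundant flanking gene, with 159, 121 and 141 CPM in S400D/S400D males, 134 CPM in the S400D/S400D female, 148, 130.5 and 132 CPM in S400D/WT males and 137, 149.6 and 144 CPM in WT/WT males. The groups overlapped, and the homozygous males alone spanned the range of all others. The log2 fold changes against WT/WT were -0.04 in S400D/S400D males (interval -0.29 to 0.21) and -0.08 in S400D/WT males (interval -0.32 to 0.17), so changes beyond a fold of 0.819 to 1.16 in homozygotes lie outside the interval. The sign in homozygotes was positive with library size alone, in limma on FPKM, with the clock index as a covariate and with the length trend removed.

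Mogs encodes the glucosidase that removes the outermost glucose from new N-glycans in the endoplasmic reticulum. It had 61.3, 55.6 and 48.2 CPM in S400D/S400D males, 52.3 CPM in the female, 57.6, 49.6 and 46.2 CPM in S400D/WT males and 47.9, 58.0 and 50.5 CPM in WT/WT males. The 3 genotypes overlapped throughout. Its log2 fold changes against WT/WT were 0.07 in S400D/S400D males (interval -0.19 to 0.34) and -0.03 in S400D/WT males (interval -0.30 to 0.23). Wbp1, which ends 141 bases from the end of Mogs in convergent orientation, had the opposite sign in both comparisons.

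Pcgf1 and Ino80b encode chromatin proteins, a Polycomb ring-finger subunit of a variant repressive complex and a subunit of the INO80 nucleosome remodeller. Pcgf1 had 5.11, 5.41 and 3.89 CPM in S400D/S400D males, 4.26 CPM in the female, 4.30, 4.60 and 4.13 CPM in S400D/WT males and 2.95, 5.04 and 4.97 CPM in WT/WT males. Wild-type male 1 was lowest and the groups overlapped, with a log2 fold change of 0.15 in S400D/S400D against WT/WT males (interval -0.37 to 0.68). With the length trend removed it was 0.36; the effective length of Pcgf1 is 622 bases. Ino80b had 12.0, 13.1 and 12.0 CPM in S400D/S400D males, 12.1 CPM in the female, 13.7, 14.3 and 13.2 CPM in S400D/WT males and 12.9, 14.0 and 13.3 CPM in WT/WT males.

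The homozygous males lay below the heterozygous males for Ino80b but overlapped the wild types. Its log2 fold changes were -0.12 against WT/WT (SE 0.10, interval -0.33 to 0.10, edgeR adjusted p = 0.581) and -0.15 against S400D/WT males (SE 0.10, interval -0.37 to 0.07, edgeR adjusted p = 0.463). With the length trend removed the sign against WT/WT was positive; the effective length of Ino80b is 918 bases. Ino80b ends 303 bases before Wbp1 starts, in tandem on the same strand, and of all the flanking genes its levels were most like those of Wbp1 (Pearson r = 0.76 over 10 libraries).

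Rtkn, the gene of rhotekin, had 16.0, 9.59 and 13.5 CPM in S400D/S400D males, 12.0 CPM in the female, 13.8, 12.6 and 11.9 CPM in S400D/WT males and 13.8, 17.4 and 17.4 CPM in WT/WT males. Wild-type males 2 and 3 were highest, and the homozygous males were widely spread. Its log2 fold changes against WT/WT were -0.32 in S400D/S400D males (SE 0.18, interval -0.71 to 0.08, edgeR adjusted p = 0.422) and -0.35 in S400D/WT males (SE 0.18, interval -0.74 to 0.05, edgeR adjusted p = 0.972). The value in homozygotes was -0.14 without homozygous male 2 and -0.48 without homozygous male 1. Both comparisons use the same 3 wild-type libraries. In S400D/S400D against S400D/WT males it was 0.03 (interval -0.37 to 0.43).

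Dctn1 encodes the dynactin subunit that links the dynein motor to microtubules. It had 41.5, 42.7 and 37.9 CPM in S400D/S400D males, 47.6 CPM in the S400D/S400D female, 36.5, 39.8 and 38.4 CPM in S400D/WT males and 39.3, 37.0 and 37.7 CPM in WT/WT males. The males overlapped and the female was highest. It had the narrowest interval of the flanking genes, with log2 fold changes against WT/WT of 0.09 in S400D/S400D males (interval -0.10 to 0.29) and 0.00 in S400D/WT males (interval -0.19 to 0.20). Changes beyond a fold of 0.933 to 1.22 in homozygotes lie outside it.

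Dqx1 encodes a helicase-like protein with a DEAQ box. It had 14.8, 20.9 and 14.4 CPM in S400D/S400D males, 26.3 CPM in the S400D/S400D female, 12.9, 18.3 and 14.5 CPM in S400D/WT males and 12.6, 18.7 and 16.0 CPM in WT/WT males. The female was above every male, and the male genotypes overlapped. Against the homozygous males the log2 fold change of the female was 0.65 (SE 0.28, interval 0.03 to 1.28, edgeR adjusted p = 0.457), in a fit that assumes that 1 female varies as the males do. Of the 10 flanking genes 0 passed in that comparison and 1 (Dqx1) had an unadjusted p below 0.05, against 0.0772% and 10.3% of 12954 genes. In males the log2 fold change of S400D/S400D against WT/WT was 0.08 (interval -0.38 to 0.55). Its sign was negative with the clock index as a covariate.

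**Figure D4:**
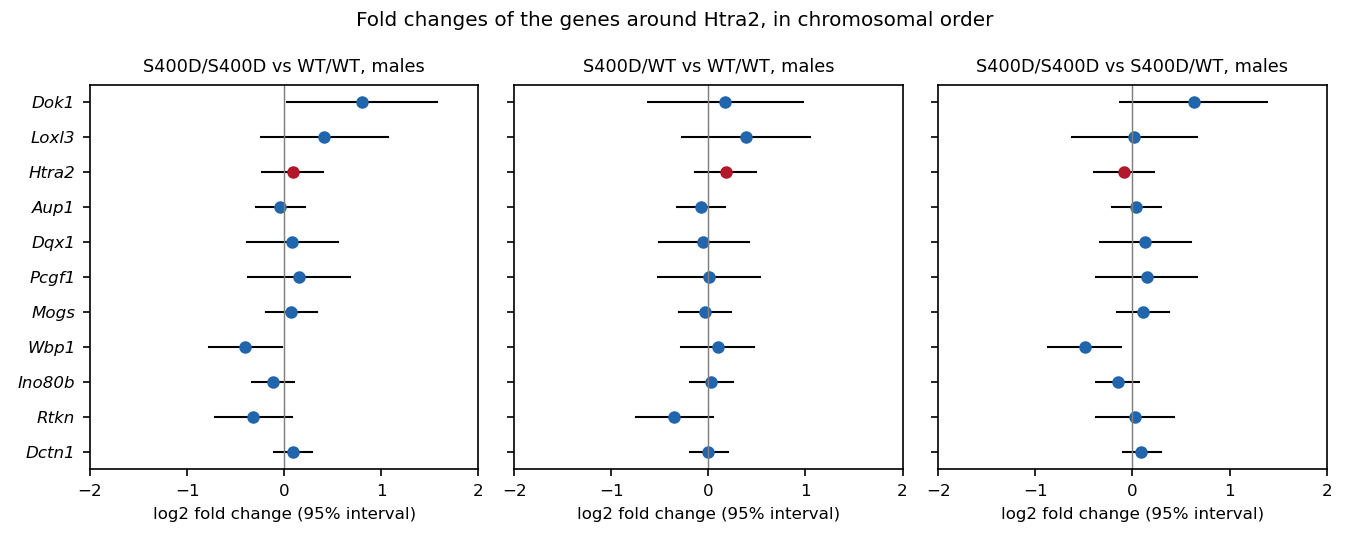
Log2 fold changes of Htra2 (red) and the flanking genes (blue), in chromosomal order, with 95% intervals from the edgeR fit of 9 males. In S400D/S400D against WT/WT males the intervals of Dok1 and Wbp1 exclude 0 before adjustment, in S400D/S400D against S400D/WT males that of Wbp1 alone, and in S400D/WT against WT/WT males none does.

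Shares of flanking genes whose groups did not overlap were set against the same shares over all genes. In S400D/S400D against WT/WT males 1 of 10 (Dok1) was higher without overlap and 1 of 10 (Wbp1) lower, against 9.74% and 10.9% of all genes tested. Between S400D/S400D and S400D/WT males 1 (Dok1) was higher and 2 (Wbp1 and Ino80b) were lower, against 10.6% and 11.7%. In S400D/WT against WT/WT males 0 were higher and 0 lower, against 4.98% and 4.92%. For the 10 genes the median absolute log2 fold change was 0.13 in S400D/S400D and 0.06 in S400D/WT against WT/WT males, beside 0.19 and 0.13 over all genes tested. Of the 10, 6 were positive and 4 negative in each of these comparisons, beside 50.7% and 51.6% positive over all genes.

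The flanking genes did not share a pattern over the libraries. The Pearson correlation of log2 CPM over the 10 libraries had a median of -0.04 over the 55 pairs of the 11 genes (range -0.72 to 0.92). Over the 10 pairs next to each other in this list the median was 0.28, though genes outside the list lie between some of them. After Loxl3 and Htra2 the most alike were Aup1 and Rtkn (0.87), which are not neighbours, then Wbp1 and Ino80b (0.76) and Dqx1 and Dctn1 (0.74). Mogs and Pcgf1 were most like each other (0.62), and Dok1 was most like its divergent neighbour Loxl3 (0.62). The divergent, overlapping pair of Htra2 and Aup1 had a correlation of -0.42, and so had the tandem pair of Aup1 and Dqx1. All points share the same libraries, with their differences in cell markers and clock phase.

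Of 55 listed transcripts of the 10 genes 26 were tested, 12 had 0 reads in all libraries, and 0 passed in either comparison with WT/WT. Over all transcripts 0.00331% passed in S400D/S400D and 0% in S400D/WT against WT/WT males. An unadjusted p below 0.05 was found for 2 of the 26 in homozygotes, a minor predicted transcript of Dqx1 (log2 fold change -1.76, SE 0.74, edgeR adjusted p = 0.629) and one of Rtkn (adjusted p = 0.607), against 7.86% of all transcripts. In heterozygotes there were 0 of 26, against 3.61%. The Rtkn transcript held 2.62% of the gene's reads. It was listed at 0 in all 4 homozygous libraries and in heterozygous male 1, and at 1.11 and 1.19 CPM in the other heterozygous males and 0.703, 0.321 and 0.123 CPM in the WT/WT males. A second listed transcript of Loxl3, with 6.97 reads over the 10 libraries, was not tested. Its share of the gene's reads was 5.68% in S400D/S400D males, 1.19% in the female and 0% in S400D/WT and WT/WT males. Homozygous male 1 had 0 CPM of it, and homozygous males 2 and 3 had 0.234 and 0.178 CPM. Most genes were counted chiefly on 1 transcript, with 98.8% of reads for Aup1, 96.7% for Mogs and 81.2% for Dctn1.

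No gene of the wider region was called either. Of 30 other genes within 1 Mb of Htra2, 18 passed the filter on low counts and 0 were called in any comparison of male genotypes. In S400D/S400D against WT/WT males 9 were positive and 9 negative (median log2 fold change 0.01), and 3 (16.7%) had an unadjusted p below 0.05. These were Tet3, an enzyme that oxidises methylcytosine (-0.42, SE 0.15, edgeR adjusted p = 0.271), Bola3, a factor in mitochondrial iron-sulphur cluster assembly (-0.37, SE 0.15, edgeR adjusted p = 0.294), and Mob1a, a Hippo pathway adaptor (0.29, SE 0.12, edgeR adjusted p = 0.298). Bola3 was at -0.22 without homozygous male 1, and Mob1a at 0.08 with the clock index as a covariate. In S400D/WT against WT/WT males 8 were positive and 10 negative (median -0.06), and 3 (16.7%) had an unadjusted p below 0.05, beside 4.19% of all genes. These were Eva1a (-0.33, SE 0.13), Cd207 (-1.29, SE 0.50) and Tet3 again (-0.37, SE 0.15), each with an edgeR adjusted p of 0.972. Leaving out 1 library moved Tet3 to -0.25 (without wild-type male 3), and Cd207, with 3 to 31 reads per library, to between -1.76 and -0.88.

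Tet3 had 26.7, 33.1 and 26.8 CPM in S400D/S400D males, 32.9 CPM in the S400D/S400D female, 26.3, 33.3 and 30.3 CPM in S400D/WT males and 32.0, 39.4 and 44.5 CPM in WT/WT males. Wild-type males 2 and 3 were highest, as they were for Rtkn, and the groups overlapped through wild-type male 1. Both comparisons with WT/WT use the same 3 wild-type libraries. In S400D/S400D against S400D/WT males the log2 fold change of Tet3 was -0.05 (interval -0.39 to 0.29). Of the 117 genes from 1 to 10 Mb from Htra2, 82 were tested and 0 called; 14 of them (17.1%) had an unadjusted p below 0.05 in homozygous against wild-type males, where 14.9% of all genes did.

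**Figure D5:**
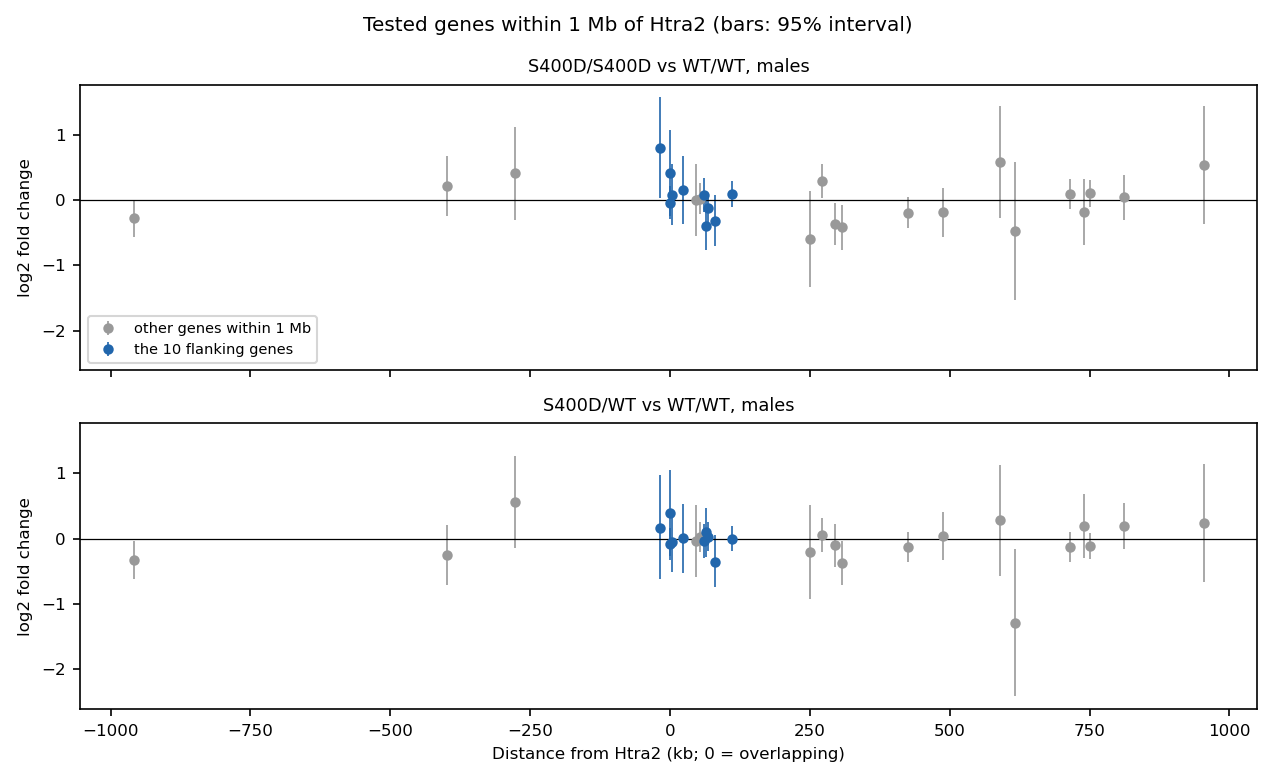
Log2 fold changes with 95% intervals for tested genes within 1 Mb of Htra2, against the distance from Htra2 in kb (flanking genes blue, other genes grey), for S400D/S400D (top) and S400D/WT (bottom) against WT/WT males. The 10 flanking genes lie between -0.40 and 0.80 in the top panel and between -0.35 and 0.39 in the bottom panel, and none passed the test.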

How the data were processed

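The authors deposited, per transcript and library, expected counts (estimated reads per transcript, not normalised), FPKM and TPM. The deposited FPKM are scaled to transcript length and library total, and the deposited TPM to length and a fixed sum, as their names state. HISAT, Bowtie2 and GRCm38.p6 are named per the submitters' processing notes; the notes used here state no roles or versions for them.

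Expected counts of 77712 transcripts were summed to 19271 genes and rounded (94.5% of nonzero sums lay within 0.05 of a whole number). The 9 males were fitted by genotype with edgeR 4.0.16 (R 4.3.3; quasi-likelihood test, TMM, its filter on low counts), with 6 residual degrees of freedom. Benjamini-Hochberg adjustment ran over all genes tested. The female entered a fit of all 10 libraries, and transcripts had a fit of their own. Intervals are coefficient ± t times SE; intervals of counts are exact Poisson and cover counting error only. Alternatives used DESeq2 1.42.0, limma 3.58.1, other scalings and filters, the replicate block, a clock covariate, a length trend and leaving out each library. The code was tested on simulated data.

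The 10 genes, marker lists and tests were chosen with earlier results of these data known. Named besides them are, of genes within 1 Mb, those called and the 3 with the smallest p in each comparison of carriers with wild type, and for each flanking gene the one most correlated with it. Single transcripts were named after their values were seen, by an unadjusted p below 0.05 or as a gene's main transcript. The second transcript of Loxl3 was named for its reads in homozygotes alone. Positions are RefSeq GRCm38.p6, counted from 1.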

Additional observations from a re-analysis of the deposited data

How the results depend on the processing

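The count of 0 flanking genes passing held in every comparison under every alternative run (limma tested 9 of the 10, without Loxl3), as did 0 member transcripts and 0 other genes within 1 Mb in the comparisons with wild type: 138 recomputed counts, 0 changed. Single fold changes were recomputed for 30 chosen pairs of a gene and a comparison. All 10 flanking genes were covered in S400D/S400D against WT/WT males alone. In S400D/WT against WT/WT males only Rtkn, Loxl3, Wbp1 and Dok1 of them were covered, so the signs of the rest were not followed there. In S400D/S400D against S400D/WT males only Wbp1 and Dok1 were. Of the 516 recomputed values 503 kept their sign, 13 did not and 0 passed. The lowest adjusted p was 0.115 (Wbp1, S400D/S400D against S400D/WT males, DESeq2). The sign turned in S400D/S400D against WT/WT males for Aup1 (clock covariate 0.025, length trend removed 0.021, library size alone 0.022, limma on FPKM 0.014 with either pseudocount), Dqx1 (clock covariate -0.14) and Ino80b (length trend removed 0.017). Leaving out each library in turn, it turned for Aup1 (-0.13 to 0.050), Dqx1 (-0.12 to 0.21), Pcgf1 (-0.06 to 0.28) and Htra2 (-0.003 to 0.27), and in S400D/WT against WT/WT males for Dok1 (-0.10 to 0.59). The cause was not tested. In homozygous against wild-type males Wbp1 kept its sign (-0.52 to -0.20 leaving out libraries, -0.41 to -0.31 otherwise), and so did Dok1 (0.54 to 1.22, and 0.41 to 0.86).

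Over all genes, DESeq2 called 308 in S400D/S400D against WT/WT, 6 in S400D/WT against WT/WT and 530 in S400D/S400D against S400D/WT males, 159 for the trend and 100 in the female, where edgeR called 0, 0, 0, 0 and 10. Without wild-type male 1 edgeR called 18 in S400D/S400D against WT/WT males, and without homozygous male 2 it called 2, and 6 against S400D/WT males. For the trend, library size alone and limma each called 2, and edgeR without wild-type male 1 called 1. With the replicate number as a block 0 flanking genes and 0 genes in all passed in the male comparisons (Wbp1 -0.41, adjusted p = 0.399, in S400D/S400D against WT/WT). Same-numbered libraries correlated between -0.438 and 0.195 in their deviations from group means, and differently numbered ones between -0.351 and 0.445. Deviations within a group of 3 sum to 0, so these values cannot decide whether the numbers pair the libraries. Dok1 and Loxl3 rest on 11 to 41 reads per library.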
